A study of Mus musculus with 24 samples.

Results

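The genes described here encode the insulin-like growth factor (IGF) axis: the ligands Igf1 and Igf2, the receptors Igf1r and Igf2r, the binding proteins Igfbp2, Igfbp3, Igfbp4 and Igfbp5, and the insulin receptor substrates Irs1 and Irs2. Members were taken from the chip annotation as every probe set of the Affymetrix MOE430A and MOE430B arrays assigned to exactly 1 gene with one of these symbols. They numbered 10 of 18193 annotated genes, and 26 of 45137 probe sets. Of the 26 probe sets, 21 lay on MOE430A and 5 on MOE430B, and 1 more that names Igf2r together with Airn was left out. Igf1 had 4 probe sets, Igf2 had 2, Igf1r had 5, Igf2r had 2, Igfbp2 had 1, Igfbp3 had 2, Igfbp4 had 6, Igfbp5 had 2, Irs1 had 1 and Irs2 had 1.

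Total RNA came from 12 mouse primary muscle cell cultures, lettered A to L, each hybridised to both chip types. Wild-type myoblasts (A to C) and Rb-null myoblasts (D to F), both from satellite cells, grew in Ham's F-10 with 20% fetal bovine serum and basic fibroblast growth factor. Rb is the retinoblastoma protein, a repressor of E2F transcription factors, and the labels describe the Rb-null myoblasts as defective in differentiation. Myotubes were harvested on day 6 in 5% horse serum, from 3 independent cell lines of each genotype: G to I were wild-type and J to L were MCK-cre Rb-flox (called Rb-flox below). In J to L a Cre recombinase driven by the muscle creatine kinase promoter, active only once muscle cells differentiate, deletes a floxed Rb gene. The stage of Rb loss thus differs between the Rb-null myoblasts and these myotubes. Serum (20% fetal bovine or 5% horse) goes with stage, so effects of stage and of culture medium cannot be told apart. The labels put the purity at 99 to 100% and name fibroblasts as the contaminant.

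IGF1 and IGF2 are secreted peptides that bind the receptor tyrosine kinase encoded by Igf1r. The active receptor phosphorylates the adaptors IRS1 and IRS2, which feed the PI3K-Akt and Ras-MAPK pathways. The receptor encoded by Igf2r carries IGF2 to lysosomes and does not signal as a kinase, and the binding proteins hold IGFs outside the cell and control how much reaches the receptor. In muscle cells IGFs are known both as mitogens of myoblasts and as promoters of differentiation, and autocrine IGF2 is a known part of the myogenic programme.

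The labels were checked first. The Rb1 probe set 1417850_at read 2879, 1440 and 1579 in A to C, 427.6, 711.9 and 259.7 in D to F, 3664, 3265 and 3314 in G to I, and 685, 802.1 and 589.8 in J to L. Every Rb-null or Rb-flox culture lay below every wild-type culture of its stage, although the myoblast difference did not pass the limma test (log2 change -1.82, SE 0.31, adjusted p = 0.352) and the myotube difference did (log2 change -2.11, SE 0.31, adjusted p = 0.00109). Where this probe set lies relative to the deleted part of Rb1 is not known. All 11 muscle markers were measured in every group, and their summed signal ran from 86180 to 184700 in cultures A to F, from 464800 to 626800 in G to I and from 270000 to 316700 in J to L. This sum mixes directions. In wild-type myotubes against wild-type myoblasts mean Myod1 (17120 against 42660), Pax7 (660.8 against 2271) and Myf5 (171 against 1864) were lower. The other markers were higher. Ckm averaged 5268 in Rb-flox and 42740 in wild-type myotubes, and Mef2c 13230 and 44890. Myf5 (1029 and 171) and Pax7 (796 and 660.8) went the other way. The array medians were 562.1 to 719.6 on MOE430A and 724.4 to 975.4 on MOE430B. The last scan day took in all 6 myotube cultures and, of the myoblasts, only culture B, so stage and scan day run together except for B. The 18S rRNA control signal on MOE430A ran from 198.9 to 7903 in A to C, where B held the highest value, from 263.1 to 311 in D to F, from 6804 to 11500 in G to I and from 5394 to 11790 in J to L. The 3' to 5' signal ratio of actin was 1.10 ± 0.0624 (SD, n = 3) in A to C, 1.02 ± 0.0533 in D to F, 0.533 ± 0.0962 in G to I and 0.879 ± 0.0794 in J to L. The part of these control and marker signals in the results below was not tested.

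Values are array signals on a linear scale, and changes are differences of group means of log2(signal + offset) with the standard error (SE) of a limma fit over all 31931 probe sets that passed a filter on low signal. A probe set was called at an adjusted p under 0.05, with Benjamini-Hochberg adjustment over all of them. Signals of different probe sets are not comparable with each other. Each group's 3 cultures limit the precision, and in bulk RNA fewer cells of a type and less RNA per cell cannot be told apart. Of the 26 member probe sets, 21 from 9 genes passed the filter, and none passed through 1 group alone. The 5 that failed were 2 of Igf1, 2 of Igfbp4 and the only one of Irs2.

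**Figure D1:**
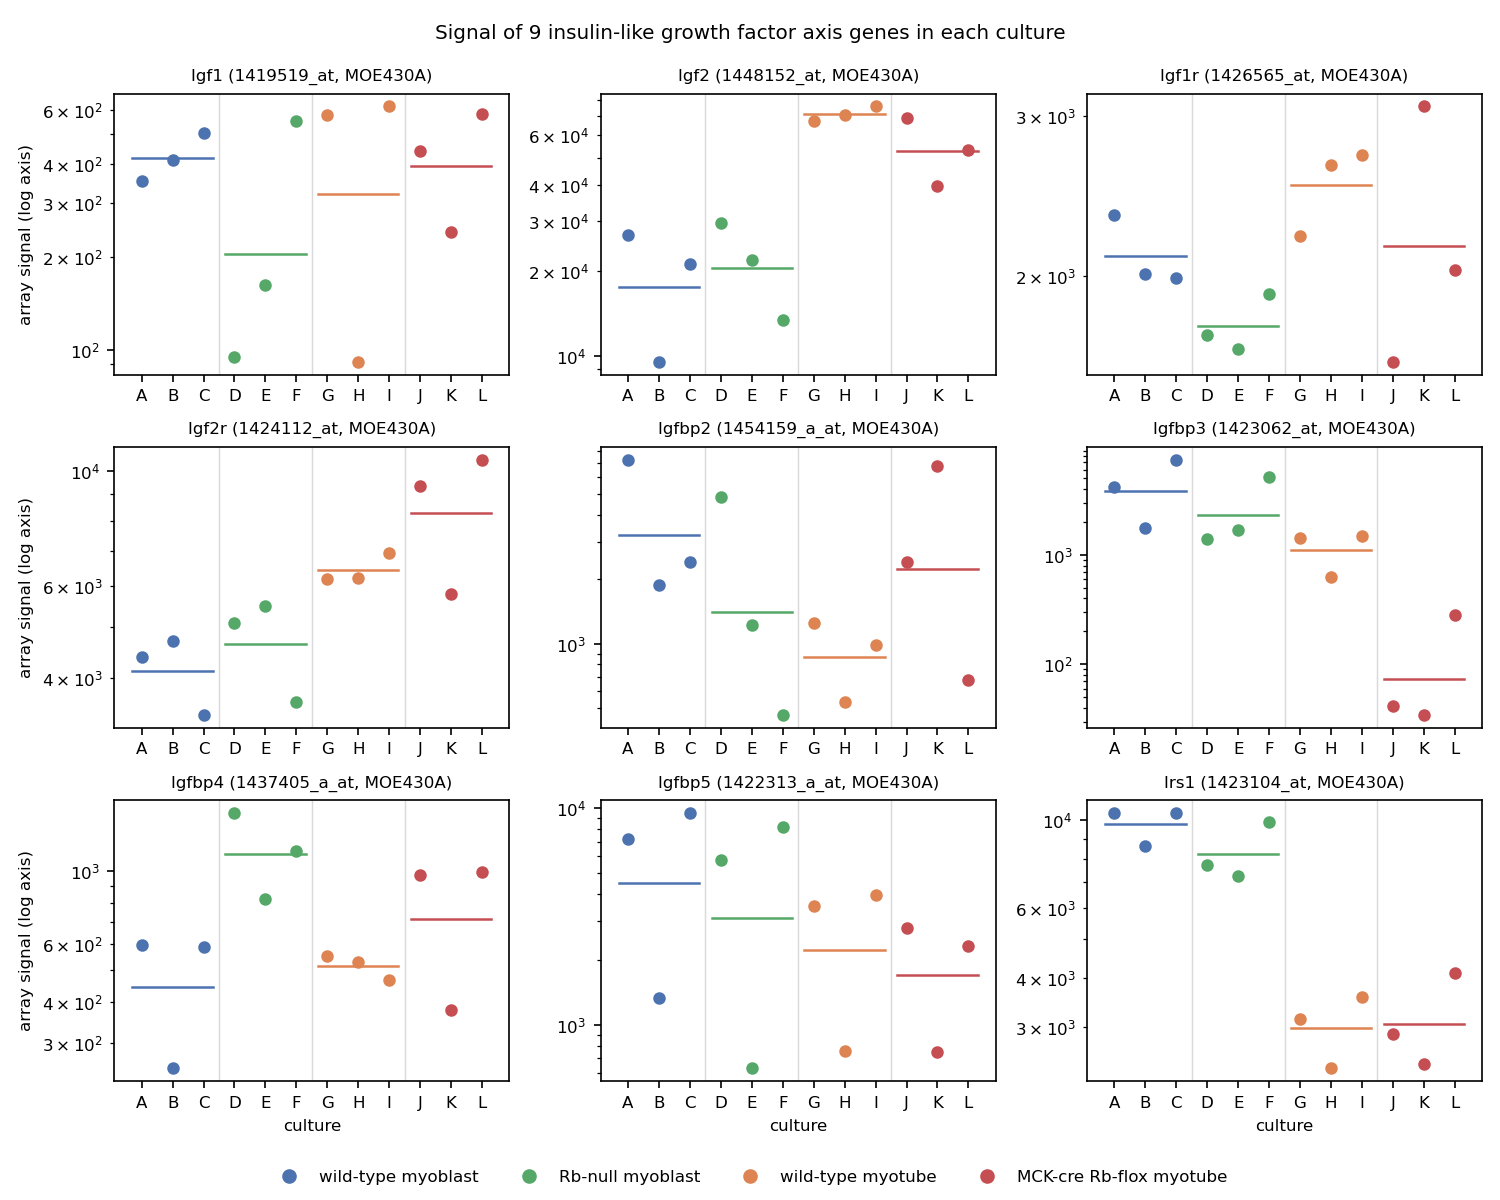
Array signal (vertical, log axis) of the representative probe set of each of the 9 tested genes in the 12 cultures (horizontal), coloured by group, with a line at each group's geometric mean. Igf2 lies higher and Irs1 lower in all 6 myotube cultures than in all 6 myoblast cultures, Igfbp3 is lowest in cultures J to L, and Igfbp5 is lowest in B, E, H and K of their groups.

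Of the 9 tested genes, 4 held a called probe set between the wild-type stages, which differ in differentiation and in serum with Rb present. A gene with several probe sets is counted here through any of them. In a fit with 1 probe set per gene, 30% of all tested genes were called in this comparison. In myotubes Igf2 and Igf2r were higher, and Irs1 and Igfbp3 lower. Their promoter windows are shown because these genes carry the results that follow. All 10 members matched RefSeq windows of 300 bases (250 before to 50 after an annotated start, mouse build GRCm38.p6), 14 in all, since Igf2 has 4 and Igfbp2 has 2. For each gene the window with the most E-box matches is printed, 5′ to 3′ on the gene's strand. Capitals mark the E-box CANNTG, the motif bound by the MyoD family. The Igf2 window is chr7:142666767-142667066 (minus strand), that of Igf2r chr17:12769657-12769956 (minus), that of Igfbp3 chr11:7213874-7214173 (minus) and that of Irs1 chr1:82291390-82291689 (minus).
Igf2: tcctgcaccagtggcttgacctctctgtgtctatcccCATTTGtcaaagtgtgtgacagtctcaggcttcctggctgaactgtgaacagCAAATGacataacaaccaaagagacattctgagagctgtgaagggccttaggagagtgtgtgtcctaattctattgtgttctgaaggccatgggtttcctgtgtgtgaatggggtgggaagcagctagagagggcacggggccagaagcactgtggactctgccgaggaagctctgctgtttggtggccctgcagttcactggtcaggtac
Igf2r: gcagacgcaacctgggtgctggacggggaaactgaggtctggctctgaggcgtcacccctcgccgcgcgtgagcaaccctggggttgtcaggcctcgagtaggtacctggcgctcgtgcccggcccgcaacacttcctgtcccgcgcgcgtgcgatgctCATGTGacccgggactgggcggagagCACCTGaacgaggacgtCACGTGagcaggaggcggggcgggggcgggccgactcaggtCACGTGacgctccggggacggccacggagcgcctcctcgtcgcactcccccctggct
Igfbp3: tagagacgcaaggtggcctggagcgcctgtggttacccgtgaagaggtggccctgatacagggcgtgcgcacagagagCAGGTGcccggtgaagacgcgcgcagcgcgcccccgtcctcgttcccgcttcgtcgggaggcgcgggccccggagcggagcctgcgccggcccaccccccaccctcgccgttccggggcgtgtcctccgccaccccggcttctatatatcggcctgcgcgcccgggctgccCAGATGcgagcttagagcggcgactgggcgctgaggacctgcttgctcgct
Irs1: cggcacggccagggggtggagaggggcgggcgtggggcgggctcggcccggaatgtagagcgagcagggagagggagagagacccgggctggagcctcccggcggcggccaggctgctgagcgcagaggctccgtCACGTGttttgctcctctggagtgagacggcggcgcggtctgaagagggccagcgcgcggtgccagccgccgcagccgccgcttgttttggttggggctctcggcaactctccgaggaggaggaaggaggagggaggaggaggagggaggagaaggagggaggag
An E-box occurred in 11 of the 14 member windows, beside 72.3% of all 32851 windows. The printed windows held 2 matches in Igf2, 4 in Igf2r, 2 in Igfbp3 and 1 in Irs1. The Igf2 windows not printed held 0, 1 and 0. The stricter CAGCTG, which is itself a CANNTG match, was found in 1 member window, that of Igf1, and in 16.3% of all windows. The E2F motifs TTTGGCGC (0.514% of all windows) and TTTCGCGC (0.323%), searched on both strands, were in none of the 14. A match is a description of the letters and not a binding site, and which Igf2 start each probe set reports was not determined here.

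In wild-type myotubes 6 of the 21 tested member probe sets were called, 3 higher and 3 lower, beside 25.0% of all probe sets (11.3% higher and 13.7% lower). The median change of the 21 was -0.19, against 0.10 over all 31931. In 9 of the 21 the groups did not overlap, beside 40.5% of all probe sets. These shares are near the background, so the direction and size of single genes are what the comparison gives.

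Igf2, the ligand made by differentiating muscle cells themselves, was higher in myotubes in both of its probe sets. Probe set 1448152_at read 26610, 9547 and 21030 in wild-type myoblasts (A to C), 29460, 21850 and 13420 in the Rb-null ones (D to F), 67150, 70780 and 75840 in wild-type myotubes (G to I), and 69110, 39780 and 53120 in the Rb-flox ones (J to L). Every myotube culture lay above every myoblast culture, and the 3 wild-type myotube cultures lay close together. It rose 4.05-fold from wild-type myoblasts to wild-type myotubes (log2 change 2.02, SE 0.36, adjusted p = 0.00138). The other Igf2 probe set, 1415931_at, read 1144, 691.4 and 456.5 in wild-type myoblasts (A to C), 686.2, 562.1 and 715.5 in the Rb-null ones (D to F), 2169, 2543 and 2827 in wild-type myotubes (G to I), and 2585, 1211 and 1751 in the Rb-flox ones (J to L). It rose 3.09-fold (log2 change 1.63, SE 0.31, adjusted p = 0.00214), again with no overlap between stages. Culture B, the only myoblast scanned with the myotubes, was the lowest of all myoblasts in 1448152_at (9547) and within their range in 1415931_at (691.4). The scan day effect on MOE430A is estimated only from B against A and C, so the blocked changes rest on that culture. With scan day as a block the changes were 2.88 (adjusted p = 0.000547) and 1.68 (adjusted p = 0.0226).

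In both Igf2 probe sets the wild-type myotubes stood highest, followed by the Rb-flox myotubes, with both myoblast groups below. The step between the myotube groups was not called (log2 change -0.43, SE 0.36, adjusted p = 0.558 for 1448152_at, and -0.47, SE 0.31, adjusted p = 0.439 for 1415931_at), and neither was the step between the myoblast groups (0.23, SE 0.36 and -0.12, SE 0.31, both adjusted p = 1.0). The step from Rb-flox myotubes to the myoblasts passed the test in both, at 1.35 (SE 0.36, adjusted p = 0.025) against Rb-null myoblasts for 1448152_at and 1.16 (SE 0.31, adjusted p = 0.0247) against wild-type myoblasts for 1415931_at. The first was lost without E, F, J or L (adjusted p of up to 0.102) and the second without C, J or L (up to 0.114). Blocking on scan day gave changes of 2.65 (adjusted p = 0.0332) and 1.21 (adjusted p = 0.123). Rb-flox myotubes and Rb-null myoblasts shared no scan day on this chip type. The first blocked value therefore depends on the low signal of culture B and is not separate evidence for the step. Culture K held the lowest Igf2 signal of the Rb-flox myotubes in both probe sets. With the fluidics protocol of the array as a block, 1448152_at was called lower in Rb-flox than in wild-type myotubes (log2 change -1.54, adjusted p = 0.0198). On MOE430A all wild-type myotubes were run with 1 protocol and all Rb-flox myotubes with the other, so that protocol effect is estimated from the myoblast arrays.

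Igf1, the ligand best known as the mediator of growth hormone, gave low and uneven signals. Probe set 1419519_at read 351.6, 413.7 and 506.5 in wild-type myoblasts (A to C), 94.87, 163 and 550.5 in the Rb-null ones (D to F), 575.6, 91.7 and 615.8 in wild-type myotubes (G to I), and 440.6, 241.5 and 581.5 in the Rb-flox ones (J to L). All 4 groups overlapped, and only 5 of the 12 arrays were above the 40th percentile of their own signals. Probe set 1434413_at on MOE430B ranged from 259.5 in culture G to 1608 in culture H, both wild-type myotubes. Its change between the wild-type stages was -0.70 (SE 0.42, adjusted p = 0.244; -1.23 and 0.0303 without H), and with all cultures no Igf1 probe set was called in any comparison. The 2 untested Igf1 probe sets read 147.9 to 829.7 (1437401_at) and 96.88 to 747.6 (1452014_a_at).

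Igf2r, the receptor that clears IGF2, was higher in myotubes of both genotypes. Probe set 1424111_at read 3488, 3377 and 3003 in wild-type myoblasts (A to C), 3334, 4525 and 3342 in the Rb-null ones (D to F), 5464, 5205 and 5208 in wild-type myotubes (G to I), and 7835, 5327 and 9975 in the Rb-flox ones (J to L). The lowest myotube culture lay above the highest myoblast culture, and 2 of the 3 Rb-flox cultures lay above all wild-type myotubes. It rose 1.59-fold in wild-type myotubes against wild-type myoblasts (log2 change 0.67, SE 0.22, adjusted p = 0.0373). This call is marginal: leaving out any of A, B, C, G, H or I gave changes of 0.61 to 0.71 with an adjusted p of up to 0.125, and scan day as a block gave 0.63 (adjusted p = 0.219). The other probe set, 1424112_at, read 4387, 4699 and 3390, then 5094, 5491 and 3590, then 6191, 6227 and 6953, and then 9339, 5780 and 10500 in the same order of groups. Its groups did not overlap either, with a change of 0.63 (SE 0.24, adjusted p = 0.0663, and 0.0285 without K).

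The order of both Igf2r probe sets was Rb-flox myotubes, wild-type myotubes, Rb-null myoblasts and wild-type myoblasts. Neighbours in this order did not pass the test, the nearest being wild-type myotubes against Rb-null myoblasts (log2 change 0.50, SE 0.22, adjusted p = 0.10 for 1424111_at). Rb-flox against wild-type myotubes gave 0.49 (SE 0.22, adjusted p = 0.208) and 0.35 (SE 0.24, adjusted p = 0.434). Without culture K the first of these became 0.73 with an adjusted p of 0.0395. Against wild-type myoblasts, the far end of the order, Rb-flox myotubes were 2.23-fold higher for 1424111_at (log2 change 1.16, SE 0.22, adjusted p = 0.00382) and 1.98-fold higher for 1424112_at (0.98, SE 0.24, adjusted p = 0.0135). Blocking on scan day took these adjusted p-values to 0.0527 and 0.184, and the second was also lost without C or L.

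Igf1r, the signalling receptor for both ligands, was not called between the wild-type stages or by genotype within a stage in any of its 5 probe sets. Its probe set 1452982_at on MOE430B read 23780, 19680 and 19660 in wild-type myoblasts (A to C), 13610, 10280 and 16540 in the Rb-null ones (D to F), 20430, 11940 and 17430 in wild-type myotubes (G to I), and 10690, 11270 and 10210 in the Rb-flox ones (J to L). At both stages all 3 cultures without Rb lay below all 3 wild-type cultures. The changes were -0.66 (SE 0.22, adjusted p = 0.875) in myoblasts and -0.59 (SE 0.22, adjusted p = 0.135) in myotubes, and neither passed the test, although the second did without H (-0.81, adjusted p = 0.047). On MOE430B the Rb-null cultures E and F had another scan day and fluidics protocol than all wild-type myoblasts, so genotype and array handling partly run together. With the protocol as a block the limma changes were -0.47 (adjusted p = 0.99) in myoblasts and -0.46 (adjusted p = 0.404) in myotubes. Probe set 1452982_at was called only between the ends of its order, 1.94-fold lower in Rb-flox myotubes than in wild-type myoblasts (log2 change -0.95, SE 0.22, adjusted p = 0.0117, against 0.184 when blocked on scan day). Probe set 1428967_at, also on MOE430B, read 4506 ± 962.7 (SD, n = 3) in A to C, 3837 ± 489.8 in D to F, 3233 ± 566.2 in G to I and 3110 ± 1169 in J to L, with all groups overlapping. Probe set 1426565_at on MOE430A was 2110 ± 195.3, 1763 ± 128.3, 2526 ± 272.7 and 2237 ± 755.4 in the same order. The 5 probe sets did not share a direction between wild-type stages: 1426565_at and 1452108_at gave 0.24 (SE 0.22) and 0.46 (SE 0.36), while 1428967_at, 1446303_at and 1452982_at gave -0.45 (SE 0.25), -0.91 (SE 0.46) and -0.37 (SE 0.22), with adjusted p of 0.172 or more.

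Igfbp3, which carries most circulating IGF and holds IGFs away from the receptor in tissue, was the only member called between Rb-flox and wild-type myotubes, and it was called in both of its probe sets. On MOE430A, 1423062_at read 4202, 1772 and 7448 in wild-type myoblasts (A to C), 1385, 1694 and 5141 in the Rb-null ones (D to F), 1431, 633.8 and 1483 in wild-type myotubes (G to I), and 41.32, 34.42 and 280.5 in the Rb-flox ones (J to L). On MOE430B, 1458268_s_at, whose suffix marks probes that may match several transcripts, read 27160, 14670 and 53240, then 13270, 8712 and 31140, then 10220, 5845 and 10100, and then 1855, 1818 and 1755 in the same order of groups. All 3 Rb-flox cultures lay below every other culture in both probe sets. Igfbp3 fell 5.49-fold on the first (log2 change -2.46, SE 0.57, adjusted p = 0.0172) and 4.30-fold on the second (log2 change -2.10, SE 0.46, adjusted p = 0.0125) in Rb-flox against wild-type myotubes. Cultures J and K lay below the offset of 130.2 on MOE430A, which understates the first change; a fixed offset of 16 gave -3.56 (adjusted p = 0.0104).

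All myotubes were scanned on the same day, so scan day does not divide this comparison. Leaving out G, I, J or K moved the adjusted p of 1423062_at to between 0.0558 and 0.0623, with changes of -2.29 to -2.23, while 1458268_s_at was called without any single culture (adjusted p of up to 0.0459). With the fluidics protocol as a block the changes were -2.42 (adjusted p = 0.138) and -2.07 (adjusted p = 0.0558). On MOE430B the wild-type cultures H and I and the Rb-flox cultures J and K shared a protocol, and their signals were 5845 and 10100 against 1855 and 1818. The 10 fibroblast markers, 6 of them above the filter and none at 0, had a summed signal of 6861 to 10400 in wild-type and 11540 to 20490 in Rb-flox myotubes. Col3a1, a fibrillar collagen, averaged 1372 and 8316 of these sums, and without it they overlapped, at 5899 to 7578 and 6597 to 9079. In myoblasts the sum was 16850 to 27500 (wild-type) and 12510 to 24820 (Rb-null), most of it from Col3a1. The part of fibroblast RNA in the Igfbp3 difference was not tested.

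Between stages Igfbp3 was also lower in wild-type myotubes than in wild-type myoblasts, 3.19-fold on 1423062_at (log2 change -1.67, SE 0.57, adjusted p = 0.0463) and 3.22-fold on 1458268_s_at (log2 change -1.69, SE 0.46, adjusted p = 0.0162), with no overlap between the groups. Culture B, scanned with the myotubes, was the lowest wild-type myoblast in both, and with scan day as a block the changes were -0.61 (adjusted p = 0.652) and -0.78 (adjusted p = 0.445). Without culture C they were -1.21 (adjusted p = 0.2) and -1.22 (adjusted p = 0.0812), and without H -1.32 (adjusted p = 0.166) and -1.43 (adjusted p = 0.0701). The call of 1423062_at was also lost without A, E, G, I or J. In myoblasts the groups overlapped, and Rb-null against wild-type gave -0.70 (SE 0.57) and -0.84 (SE 0.46), both with an adjusted p of 1.0. The Rb effect in myotubes minus that in myoblasts was -1.76 (SE 0.80, adjusted p = 0.389) and -1.26 (SE 0.65, adjusted p = 0.46), so the fall in myotubes was not shown to differ from the myoblast values. Between the far ends of the order, Rb-flox myotubes and wild-type myoblasts, Igfbp3 differed by -4.13 (SE 0.57, adjusted p = 0.000754) and -3.79 (SE 0.46, adjusted p = 0.000366), and, blocked on scan day, by -3.07 (adjusted p = 0.0269) and -2.88 (adjusted p = 0.0147).

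**Figure D2:**
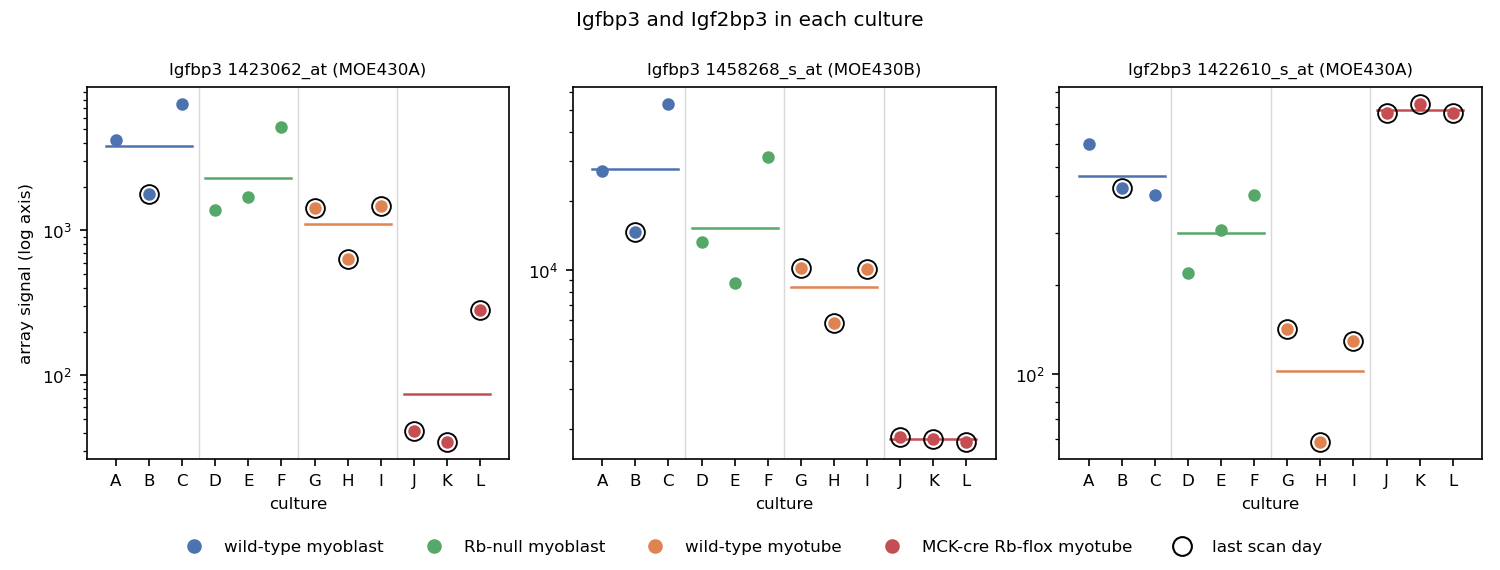
Array signal (vertical, log axis) of both Igfbp3 probe sets and of Igf2bp3 in the 12 cultures (horizontal), coloured by group, with lines at geometric means and black rings around cultures scanned on the last day. The Rb-flox cultures J to L are lowest for Igfbp3 and highest for Igf2bp3, and culture B is the lowest wild-type myoblast for Igfbp3.

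Igfbp4, a binding protein that restrains IGF action and is cleaved by the protease PAPP-A, was not called between wild-type stages or between genotypes at 1 stage. Probe set 1437405_a_at read 594.2, 252 and 588.9 in wild-type myoblasts (A to C), 1498, 820 and 1150 in the Rb-null ones (D to F), 549.9, 528.7 and 465.7 in wild-type myotubes (G to I), and 967.3, 379.3 and 990.2 in the Rb-flox ones (J to L). All Rb-null myoblasts lay above all wild-type myoblasts, but the change of 1.10 (SE 0.37) did not pass the test (adjusted p = 0.861). Probe set 1437406_x_at, whose suffix marks possible cross-hybridisation, read 309.2, 237.2 and 296.6, then 923.8, 359.3 and 719, then 342.5, 106 and 60.38, and then 564.4, 377.7 and 694.2. In 1437406_x_at both the Rb-null and the Rb-flox cultures lay above the wild-type cultures of their stage, whereas in 1437405_a_at culture K lay below all wild-type myotubes. The changes of 1437406_x_at were 0.89 (SE 0.40, adjusted p = 1.0) in myoblasts and 1.26 (SE 0.40, adjusted p = 0.071, and 1.64 with an adjusted p of 0.0269 without G) in myotubes. Probe set 1437405_a_at gave 0.41 (SE 0.37, adjusted p = 0.591) in the myotube comparison. Probe set 1423757_x_at, which was above the filter level on all 12 arrays, read 861.9, 934.9 and 826.4 in wild-type myoblasts, 1600, 885.2 and 1282 in the Rb-null ones, 1836, 1198 and 1277 in wild-type myotubes, and 1271, 1434 and 1267 in the Rb-flox ones. It gave -0.09 (SE 0.25) and 1421992_a_at gave 0.04 (SE 0.34) in the myotube comparison, with adjusted p-values of 0.896 or more, and they gave 0.43 (SE 0.25) and 0.40 (SE 0.34) in myoblasts, so all 4 tested probe sets were positive there and none was called. The untested 1421991_a_at and 1423756_s_at read 32.13 to 142.5 and 28.85 to 897.1.

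Igfbp5, the binding protein best known in muscle for its rise early in differentiation, varied more between replicate cultures than between groups. Probe set 1422313_a_at read 7207, 1324 and 9513 in wild-type myoblasts (A to C), 5747, 629.9 and 8191 in the Rb-null ones (D to F), 3547, 755 and 3987 in wild-type myotubes (G to I), and 2810, 747.5 and 2298 in the Rb-flox ones (J to L). Probe set 1452114_s_at read 19730, 1691 and 21380, then 13120, 1786 and 15270, then 14460, 4237 and 8111, and then 9928, 1390 and 7790. Cultures B, E, H and K were the lowest of their groups in both probe sets. The labels give nothing that links these 4 cultures, and their letters pair no samples across groups. Replicate cultures had log2 SDs of 1.42 and 1.57, each above those of 99.9% of MOE430A probe sets, whose median was 0.321.

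No comparison called Igfbp5. The change from wild-type myoblasts to wild-type myotubes was -0.98 (SE 0.91, adjusted p = 0.457) and -0.19 (SE 1.0, adjusted p = 0.909). Blocked on scan day, with B the only myoblast of the myotubes' day, it turned to 0.71 (adjusted p = 0.77) and 2.15 (adjusted p = 0.268). The gene nearest to Igfbp5 in profile over the 12 cultures was Pla2g4a, a cytosolic phospholipase, followed by Tm4sf1 and Nid1, the basement membrane protein nidogen, at root mean square differences of 0.63, 0.63 and 0.66 log2 units. The median over 14365 single-gene MOE430A probe sets was 1.35. Nid1 read 298.4, 169.5, 171.1 and 264.3 in cultures B, E, H and K and 324.3 to 3347 in the other 8. Pla2g4a, Tm4sf1 and Nid1 were picked for nearness over these same cultures, so their shared pattern is not separate evidence. In summed fibroblast signal E and H were the lowest of their groups, B was in the middle and K was the highest. Col3a1 made up 18830 of 24020 in B, 10130 of 12510 in E, 218.3 of 6861 in H and 11410 of 20490 in K. The part of fibroblast RNA in the Igfbp5 pattern was not tested.

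**Figure D3:**
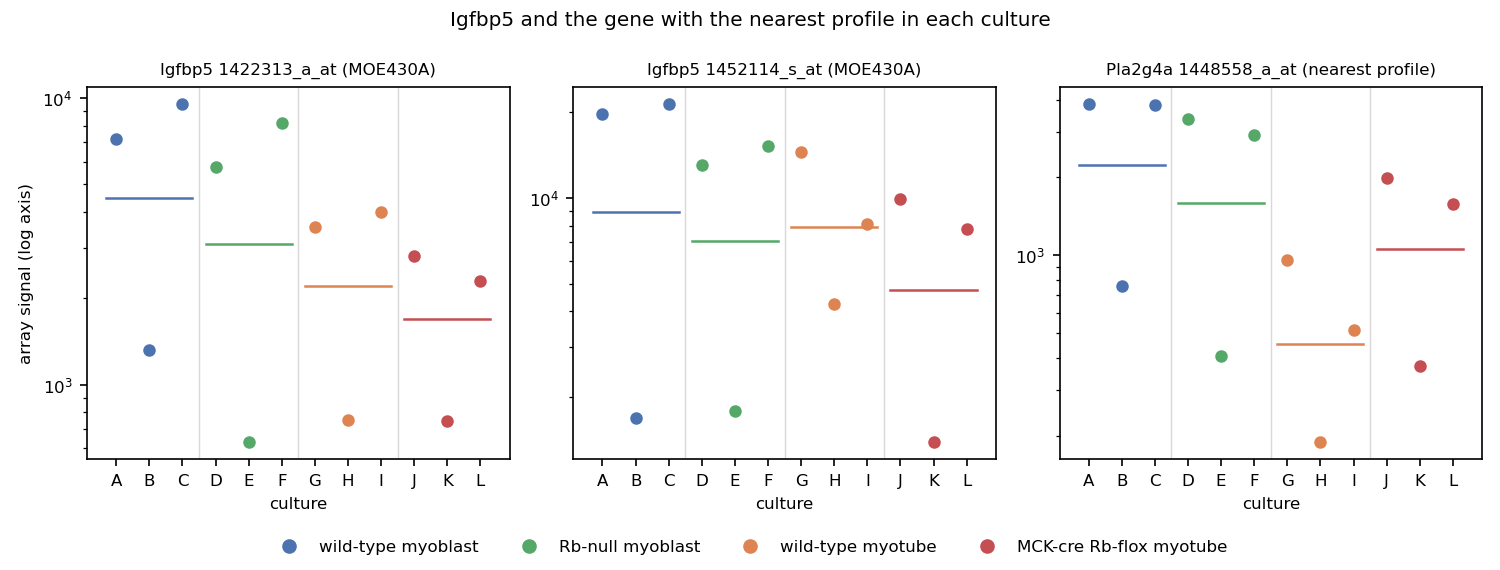
Array signal (vertical, log axis) of both Igfbp5 probe sets and of Pla2g4a, the gene with the nearest profile, in the 12 cultures (horizontal), coloured by group, with lines at geometric means. Cultures B, E, H and K are the lowest of their groups in each panel.

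Igfbp2, the neighbour of Igfbp5 on chromosome 1 and another binding protein made by muscle cells, was as uneven but in other cultures. Its probe set 1454159_a_at read 7264, 1886 and 2421 in wild-type myoblasts (A to C), 4866, 1223 and 464 in the Rb-null ones (D to F), 1252, 534 and 989.1 in wild-type myotubes (G to I), and 2405, 6775 and 676.7 in the Rb-flox ones (J to L). Culture K, among the lowest for Igfbp5, was the second highest of all 12 here. Wild-type myotubes lay below all wild-type myoblasts, yet the change of -1.74 (SE 0.80) did not pass the test (adjusted p = 0.13), and the SD between replicates of 1.23 was above 99.7% of probe sets. Rb-flox against wild-type myotubes gave 1.26 (SE 0.80, adjusted p = 0.408), with overlap.

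Irs1, the adaptor that links the IGF1 and insulin receptors to PI3K, was lower in myotubes, with the smallest adjusted p of the members in the wild-type comparison. Probe set 1423104_at read 10430, 8634 and 10460 in wild-type myoblasts (A to C), 7707, 7237 and 9903 in the Rb-null ones (D to F), 3152, 2361 and 3573 in wild-type myotubes (G to I), and 2882, 2424 and 4106 in the Rb-flox ones (J to L). Every myotube culture lay below every myoblast culture. Irs1 fell 3.19-fold in wild-type myotubes against wild-type myoblasts (log2 change -1.67, SE 0.22, adjusted p = 0.000142) and was 2.61-fold lower in Rb-flox myotubes than in Rb-null myoblasts (log2 change -1.38, SE 0.22, adjusted p = 0.00165, and 0.22 when blocked on scan day). Leaving out any culture kept the first between -1.80 and -1.51, and scan day as a block gave -1.49 (adjusted p = 0.00735). Within a stage the genotypes overlapped, at -0.25 (SE 0.22, adjusted p = 1.0) in myoblasts and 0.04 (SE 0.22, adjusted p = 0.958) in myotubes. Irs2, the sister adaptor, was measured by 1443969_at alone, which read 30.76 to 367.7 in cultures A to J and 644.5 and 762.1 in K and L, above the 40th percentile on 2 arrays, and was not tested.

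**Figure D4:**
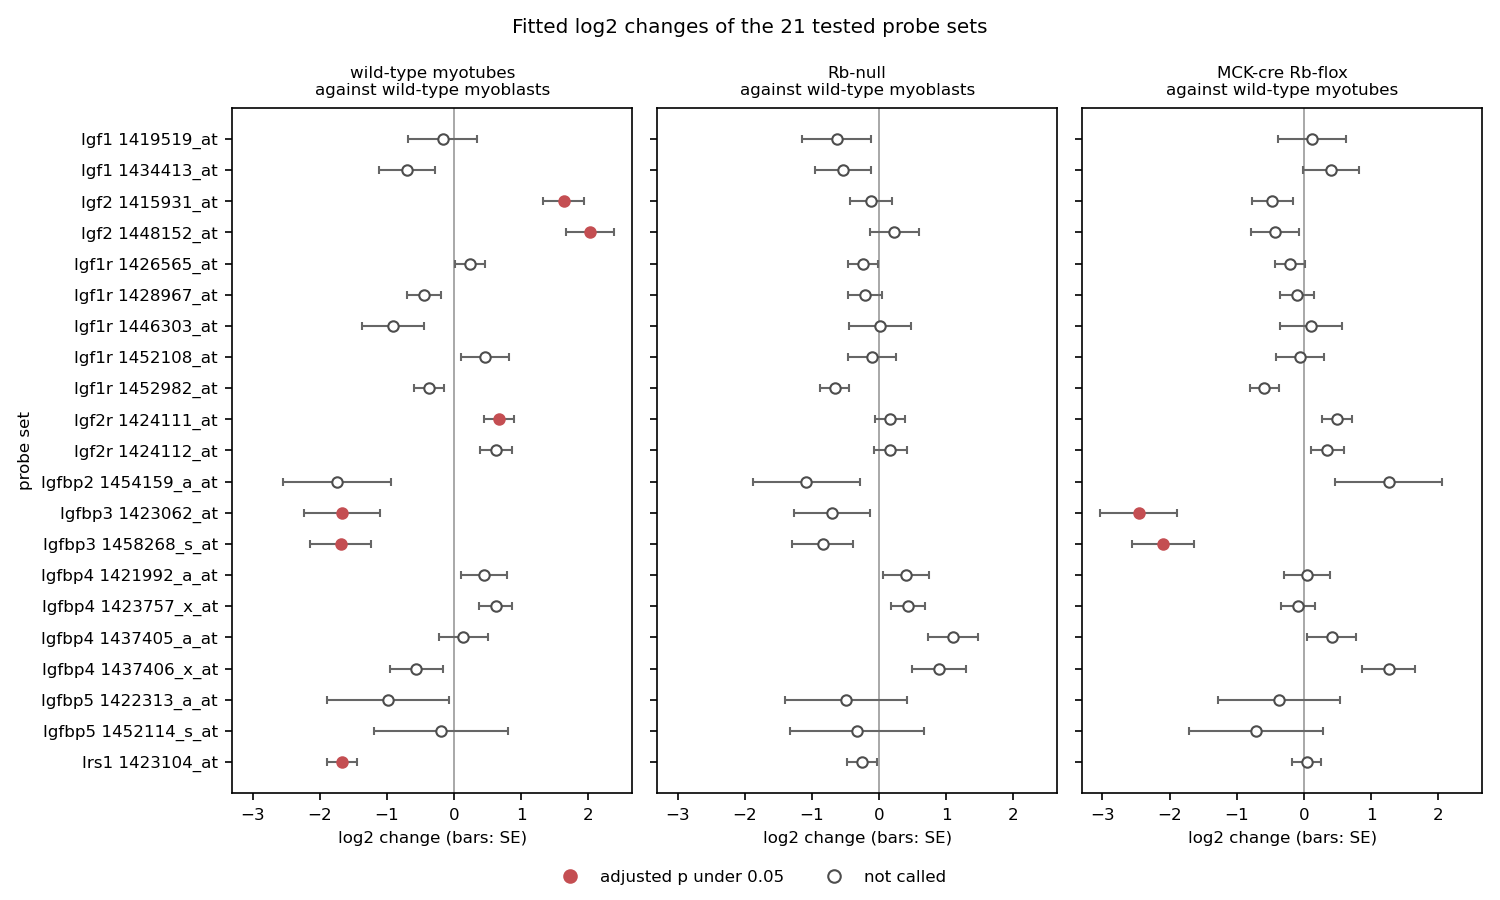
Fitted log2 change (horizontal, bars are SE) of the 21 tested probe sets (vertical) in 3 comparisons, with filled points for adjusted p under 0.05. Filled points are Igf2, 1 of 2 Igf2r probe sets, Igfbp3 and Irs1 in the first panel, none in the second and both Igfbp3 probe sets in the third.

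By comparison, Rb loss in dividing myoblasts called 0 of the 21 member probe sets with limma, beside 0.0% of all probe sets. At an unadjusted p under 0.05 there were 3 of 21, and 1431 of all 31931. The groups did not overlap in 4 of the 21, beside 11.6% of all, and the median member change was -0.21 against 0.0 over all. In Rb-flox against wild-type myotubes 2 of 21 were called, both lower, beside 8.21% of all probe sets (4.96% higher and 3.25% lower), and the groups did not overlap in 4 of 21, beside 24.3%. The median member change was -0.06 there, against 0.02 over all. For the difference between the 2 Rb effects no member was called, beside 1.3% of all probe sets. At an unadjusted p under 0.05 there was 1 of 21, beside 3998 of all 31931.

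Across stage and genotype, Rb-flox myotubes against Rb-null myoblasts called 7 of 21 member probe sets, 4 higher and 3 lower, beside 15.3% of all probe sets (6.61% higher and 8.67% lower), and 9 of 21 did not overlap, beside 38.3%. Rb-flox myotubes against wild-type myoblasts called 8 of 21, 4 in each direction, beside 15.8% (7.11% higher and 8.73% lower), and 11 did not overlap, beside 34.3%. Wild-type myotubes against Rb-null myoblasts called 4 of 21, 2 in each direction, beside 27.2% (12.4% higher and 14.7% lower), and 9 did not overlap, beside 46.1%. These comparisons share cultures with those above and are not separate evidence. Igf2 was called higher and Irs1 lower in all 3. Both probe sets of Igf2r and of Igfbp3 were called in the comparisons with Rb-flox myotubes, whereas Igfbp3 in wild-type myotubes against Rb-null myoblasts gave -0.97 (SE 0.57, adjusted p = 0.222) and -0.85 (SE 0.46, adjusted p = 0.186). In that comparison Igfbp4 1437406_x_at was the remaining call (log2 change -1.45, SE 0.40, adjusted p = 0.0156), which was lost without D, F, H or I. With scan day as a block the 3 counts of called members became 1, 4 and 1.

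Genes with profiles nearest to the members were named by the same measure, as a description over 12 cultures. For Igf2 they were Tmem158, Map1lc3a and Dag1, at 0.23, 0.23 and 0.26 log2 units (median of the probe sets compared 1.02). Map1lc3a, an autophagosome protein gene, read 2475 to 6009 in myoblasts and 11980 to 15230 in myotubes. Dag1 encodes dystroglycan, the laminin receptor of the muscle membrane. For Irs1 they were Tgif1, Rbm7 and Ubqln2, at 0.14, 0.18 and 0.18 (median 0.92). Tgif1, a homeodomain repressor gene, read 3993 to 5566 in myoblasts and 1460 to 2618 in myotubes. For Igfbp3 the nearest were Tnc, the matrix protein tenascin C, Clcf1 and Phlda1, and they were less close, at 0.84, 0.86 and 0.86 (median 1.79). For Igf1r and Igf1, whose own ranges were 0.88 and 1.75 log2 units, the nearest were Fam104a (0.11) and Mc3r (0.24).

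The other genes of the pathway were taken from 3 lists and measured by 1 probe set each. Between the wild-type stages 25.0% of all tested probe sets were called, and 30% in a fit with 1 probe set per gene. In Rb-flox against wild-type myotubes these shares were 8.21% and 11.6%. The counts of called genes below stand beside these shares and are not read as results about the lists. In the list of IGF availability (11 of 16 genes tested) wild-type myotubes against wild-type myoblasts gave 2 genes higher and 1 lower, with a median change of 0.47 against 0.10 over all probe sets. Igfbp6, a binding protein that prefers IGF2, rose 2.80-fold (log2 change 1.49, SE 0.43, adjusted p = 0.023). Stc2, stanniocalcin 2, an inhibitor of PAPP-A, rose 2.47-fold (1.30, SE 0.36, adjusted p = 0.0185). Igf2bp3, which encodes an RNA-binding protein of the family that binds Igf2 mRNA, fell 2.52-fold (-1.34, SE 0.29, adjusted p = 0.00514). The first call was lost without B, C, G or I and the second without A, C or G.

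In Rb-flox against wild-type myotubes the same list gave 2 genes higher and none lower. Igf2bp3 was measured here by 1422610_s_at alone, whose suffix marks probes that may match several transcripts. It read 597.4, 423.8 and 401.1 in wild-type myoblasts (A to C), 219.7, 306.5 and 401 in the Rb-null ones (D to F), 141.2, 58.58 and 129.4 in wild-type myotubes (G to I), and 764.1, 817.3 and 764 in the Rb-flox ones (J to L). All Rb-flox myotubes lay above every other culture and all wild-type myotubes below, while the myoblast groups nearly met, at 401 (F) and 401.1 (C). It was 3.85-fold higher in Rb-flox than in wild-type myotubes (log2 change 1.94, SE 0.29, adjusted p = 0.0013), a call kept without any single culture and with the fluidics protocol as a block (adjusted p = 0.0126). Htra1, a secreted serine protease that cleaves binding proteins, read 236.1, 149.7 and 510.1 in wild-type and 1022, 1086 and 5442 in Rb-flox myotubes, a rise of 4.92-fold (2.30, SE 0.55, adjusted p = 0.0196) that was not called without G, H or L or with the protocol as a block (adjusted p = 0.146). Insr, the insulin receptor, was not called in either comparison (0.41, SE 0.31 and -0.19, SE 0.31). Of the listed genes that neighbour a member, Igfbp1, next to Igfbp3 on chromosome 11, was below the filter, and Ins2, an insulin gene next to Igf2 on chromosome 7, was not called (wild-type myotubes against wild-type myoblasts 1.16, SE 0.46, adjusted p = 0.0815, on an _x_at probe set).

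In the adaptor and Ras-MAPK list (16 of 21 genes tested) 3 genes were called higher in wild-type myotubes than in wild-type myoblasts and none lower. The median was 0.03. Spry1, a feedback inhibitor of receptor tyrosine kinase signalling, rose 2.76-fold (log2 change 1.47, SE 0.30, adjusted p = 0.00302). Gab1, a docking protein, rose 2.24-fold (1.16, SE 0.30, adjusted p = 0.0114, lost without A), and Ptpn11, the phosphatase SHP2, rose 1.62-fold (0.70, SE 0.21, adjusted p = 0.0253, lost without A, C, H or I). Blocked on scan day none of these calls remained (adjusted p = 0.0593 for Spry1, 0.131 for Gab1 and 0.257 for Ptpn11), and Spry2, of the same inhibitor family as Spry1, was called lower (-1.42, adjusted p = 0.0151, against -0.72 and 0.0995 without the block). In Rb-flox against wild-type myotubes limma called 0 of the 16. At an unadjusted p under 0.05 there were 3 of 16, beside 6846 of all 31931 probe sets.

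In the PI3K-Akt-mTOR-FoxO list (23 of 26 genes tested) 5 genes were called higher in wild-type myotubes than in wild-type myoblasts and 1 lower. The median was 0.30. Pik3cb, a catalytic subunit of PI3K, read 846.3, 599.2 and 304.4 in wild-type myoblasts and 5005, 3627 and 2773 in wild-type myotubes, a rise of 5.16-fold (log2 change 2.37, SE 0.33, adjusted p = 0.000191). Inppl1, the lipid phosphatase SHIP2, rose 2.48-fold (1.31, SE 0.28, adjusted p = 0.0044), and Foxo3, a transcription factor held in the cytoplasm by Akt, rose 2.10-fold (1.07, SE 0.26, adjusted p = 0.00827). Eif4e, the cap-binding protein, fell 1.67-fold (-0.74, SE 0.18, adjusted p = 0.00915). Blocked on scan day, 5 genes of the 3 lists were called between the wild-type stages in place of 12: Pik3cb (adjusted p = 0.00766), Foxo3 (0.0158), Tsc2 (0.0276) and Inppl1 (0.0414) higher and Spry2 lower.

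In Rb-flox against wild-type myotubes this list gave 1 gene higher and 2 lower, with a median of -0.18. Eif4ebp1, the repressor of eIF4E, read 4522, 4648 and 7948 in wild-type and 12110, 11950 and 13670 in Rb-flox myotubes, a rise of 2.25-fold (log2 change 1.17, SE 0.24, adjusted p = 0.0083). Akt1, the kinase at the centre of the pathway, read 5773, 6359 and 8481 against 3873, 3138 and 3860, a fall of 1.85-fold (-0.89, SE 0.18, adjusted p = 0.00835). Inppl1 read 18530, 12010 and 19720 against 5643, 6443 and 10470, a fall of 2.24-fold (-1.16, SE 0.28, adjusted p = 0.0218) lost without G, I, J or K. The groups did not overlap in any of the 3. With the fluidics protocol as a block Akt1 was called (adjusted p = 0.0334), and Eif4ebp1 (0.1) and Inppl1 (0.0769) were not. None of the 3 lists held a called gene in Rb-null against wild-type myoblasts with limma, beside 0.0% of all probe sets. There 1 gene of each list had an unadjusted p under 0.05, beside 1431 of all 31931 probe sets.

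**Figure D5:**
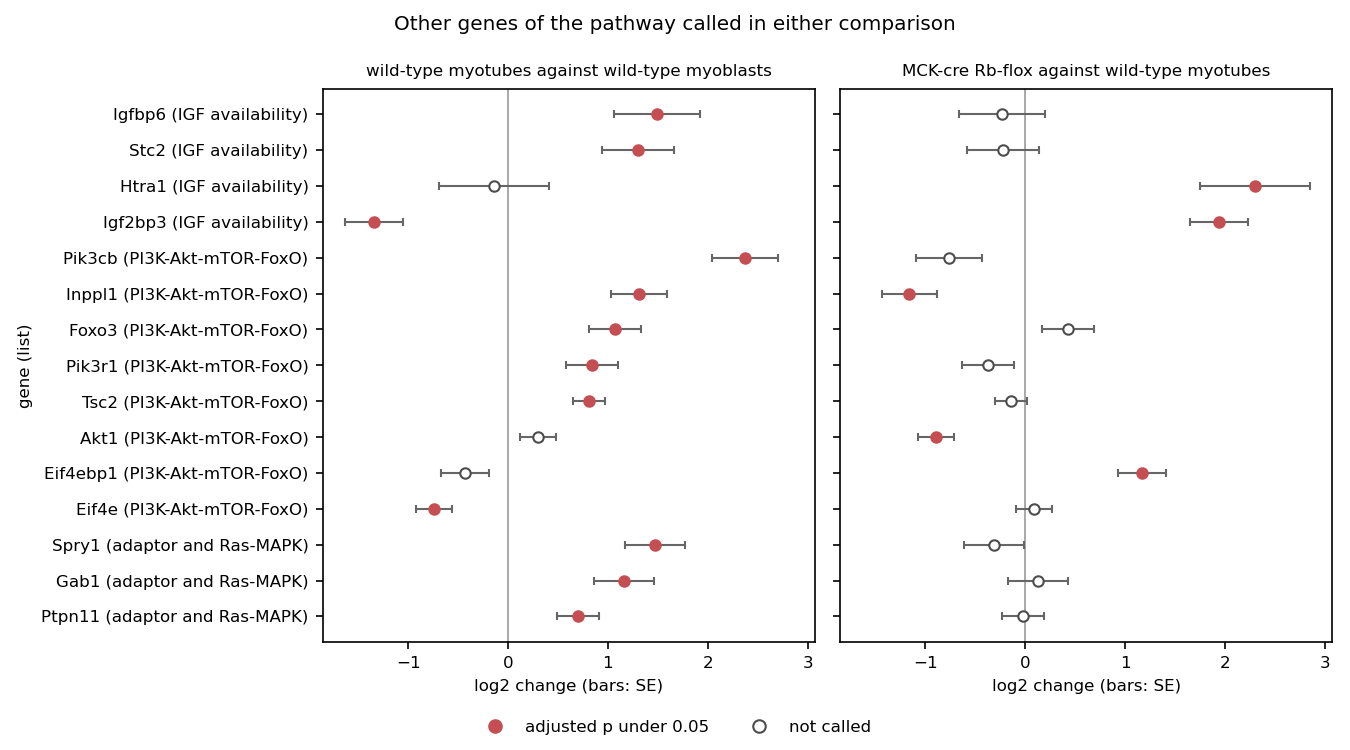
Fitted log2 change (horizontal, bars are SE) of the pathway genes called in either comparison (vertical, with their list), filled where adjusted p was under 0.05. Igf2bp3 and Inppl1 are filled in both panels, with opposite signs.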

How the data were processed

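The authors' deposited tables give a linear intensity for each probe set, made with MAS5 per the submitters' processing notes (no version given). From the values, each array was scaled to a mean of 1500 after trimming 2% at each end. Records written by the scanner software, also deposited, were read only for scan day and fluidics protocol. MOE430A held 22690 and MOE430B 22575 probe sets. Genes came from the supplied chip annotation with RefSeq names: 34837 of 35041 single-gene probe sets matched by gene ID. The genome build behind the chips is not given in the sources used here.

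The scale was log2(signal + offset). The offset was 130.2 on MOE430A and 206.0 on MOE430B, the 20th percentile of all their signals. Tested probe sets exceeded the array's 40th percentile in 3 or more cultures. limma 3.58.1 in R 4.3.3 (lmFit, eBayes with trend) fitted 1 mean per group to all 12 cultures, with Benjamini-Hochberg adjustment over 31931 probe sets, and was tested on simulated data. Each listed pathway gene had 1 probe set: MOE430A before MOE430B, _x_at and _s_at last, then the highest mean. Python 3.11.15 drew the figures.

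Named genes were all members, up to 3 largest called rises and falls per pathway list, the 3 nearest profiles of 6 members, Rb1, neighbours and markers. The fibroblast and muscle marker sums are given in the report. Macrophage sums were 2255 to 4259 in A to C, 2294 to 3513 in D to F, 3809 to 5534 in G to I and 4780 to 5831 in J to L. In the same order endothelial sums were 685.1 to 2577, 844.3 to 1270, 1371 to 2398 and 1602 to 1933. Adipocyte sums were 766.9 to 1361, 778 to 1338, 604.2 to 1536 and 1239 to 1569. Culture B, scanned with the myotubes, held the highest of A to C in each. The causes were not tested. The members and lists were chosen with earlier results of these data known. The letters of the cultures occur in 1 group each, so nothing pairs samples. The labels call the myoblasts biological triplicates, and p-values measure the spread between these cultures. Alternatives were other offsets, no filter, quantile or median scaling, scan day as a block, 1 probe set per gene, leaving out each culture, and, added after seeing the data, the fluidics protocol as a block. On MOE430B culture L had no recorded protocol and drops out of that last fit.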

Additional observations from a re-analysis of the deposited data

Results flagged for a closer look

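Igf2bp3 (1422610_s_at) was the only gene among the members and pathway lists whose Rb effect differed between stages by a test of the difference itself. Its probe set's suffix marks probes that may match several transcripts, and no other probe set of this gene is reported here. The effect in myotubes minus that in myoblasts was 2.41 on the log2 scale (SE 0.42, limma adjusted p = 0.0124). The Rb effect was 1.94 (SE 0.29, adjusted p = 0.0013) in myotubes, where 3 of 3 Rb-flox cultures lay above all wild-type cultures, and -0.47 (SE 0.29, adjusted p = 1.0) in myoblasts, where 3 of 3 Rb-null cultures lay below, though by only 401 (F) against 401.1 (C) at the nearest. With scan day or the fluidics protocol as a block the difference had an adjusted p of 0.0136 and 0.0269. The wild-type myotube signals of 58.58 to 141.2 lay near the offset of 130.2, which understates changes against them. Over all probe sets the test of the difference called 1.3%, and 2.28% in a fit with 1 probe set per gene. The single call among the members and lists stands beside these shares and is not read as a result about the members or lists.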

How the results depend on the processing

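Between the wild-type stages 6 member probe sets were called, against 3 with 1 probe set per gene, 3 with scan day as a block and 3 with the fluidics protocol as a block. Leaving out 1 culture gave 3 (without C) to 7. For Rb-flox against wild-type myotubes 2 became 1 with 1 probe set per gene and 1 with the protocol block, where both Igfbp3 calls were lost (adjusted p = 0.138 and 0.0558) and Igf2 1448152_at was called (0.0198), and 1 (without I or J) to 3 when a culture was left out. For Rb-flox myotubes against Rb-null myoblasts 7 became 4 with 1 probe set per gene, 1 with the scan day block and 4 (without J) to 7 without 1 culture. For Rb-flox myotubes against wild-type myoblasts 8 became 4 under each of those first 2 settings and 6 to 8 without 1 culture. For wild-type myotubes against Rb-null myoblasts 4 became 2 and 1, and 3 to 6. The difference of the Rb effects went from 0 to 1 with the protocol block (Igf2 1448152_at, -1.77, adjusted p = 0.0481), and no culture left out gave a call there or in Rb-null against wild-type myoblasts. Pathway genes called between wild-type stages went from 12 to 5 with the scan day block and 8 to 14 without 1 culture, and in Rb-flox against wild-type myotubes from 5 to 2 with the protocol block and 3 (without G) to 5.

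Every alternative was run for 12 member probe sets, 1 per tested gene and the others called between wild-type stages or genotypes of 1 stage, and among these the sign turned in values that were not called. With scan day as a block these were Igf2 1448152_at in Rb-null against wild-type myoblasts (-0.20) and Igfbp5 1422313_a_at between wild-type stages (0.71). For Rb-flox against wild-type myotubes they were Igfbp2 (-0.36) and Igfbp4 1437405_a_at (-0.03) with the protocol block and Irs1 (-0.02) with median centring. Without 1 culture, Igf1 1419519_at ranged from -0.48 to 0.40 between wild-type stages and from -0.45 to 0.43 in Rb-flox against wild-type myotubes. In Rb-null against wild-type myoblasts Igf2 ranged from -0.39 to 0.17 (1415931_at) and from -0.20 to 0.53 (1448152_at), and Igfbp5 1422313_a_at from -1.33 to 0.58. Igfbp4 1437405_a_at ranged from -0.16 to 0.30 between wild-type stages. In Rb-flox against wild-type myotubes Igfbp5 1422313_a_at ranged from -1.08 to 0.17 and Irs1 from -0.17 to 0.20. Of the other 9 tested probe sets, the scan day block turned Igfbp5 1452114_s_at (to 2.15), Igf1r 1452108_at (-0.25) and Igfbp4 1421992_a_at (-0.06) between wild-type stages and Igf1r 1452108_at (0.26) and 1446303_at (-0.04) in myoblasts. The protocol block turned Igfbp5 1452114_s_at (0.44) between wild-type stages and Igf1r 1452108_at (0.52) and Igfbp4 1423757_x_at (0.02) in myotubes. The causes were not tested.

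Over all probe sets, scan day as a block took the calls between wild-type stages from 7972 to 3764 (5164 with the protocol block), and those of Rb-flox myotubes against Rb-null and wild-type myoblasts from 4882 to 242 and from 5057 to 1691. Wild-type myotubes against Rb-null myoblasts went from 8671 to 1786, and the protocol block took Rb-flox against wild-type myotubes from 2623 to 1373. Median centring moved the median change between wild-type stages from 0.0986 to -0.0308 and the share of calls that were higher from 45.3% to 34.9%. That share went from 43.3% to 23.0% and from 44.9% to 25.3% for Rb-flox myotubes against Rb-null and wild-type myoblasts, and from 45.8% to 34.9% for wild-type myotubes against Rb-null myoblasts. It left Igf2r 1424111_at at 0.56 between wild-type stages (adjusted p = 0.102). With the protocol block the share for the difference of the Rb effects went from 68.1% to 51.7%. Signals near the offset, as for Irs2 and the untested Igfbp4 probe set 1421991_a_at, limit what can be measured. No paired analysis was possible because each culture letter occurs in 1 group only.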
